A study of Mus musculus with 3 samples.

Results

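The genes described here encode the nuclear pore complex and the soluble factors that carry cargo through it. They were chosen by name from the gene spots of the array: the numbered nucleoporins, the karyopherins alpha and beta, the numbered importins and the exportins, Ran and its binding partners, and Tpr, Seh1l, Rae1, Aaas and the Pom121 genes. This gave 55 genes of the 31896 gene names on the array, read by 81 of 39429 probes on 108 of 43020 spots. The pore membrane gene Ndc1 was also in the rule, but the array carries it under an older name, so it appears only among the companion genes below. Of the 55 genes, 50 were measured well enough to be tested.

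RNA came from 3 primary diffuse-type gastric cancers of mice with the genotype Atp4b-Cre+;Cdh1loxP/loxP;Trp53loxP/loxP, aged 12 months, and from normal gastric mucosae of mice with the genotype Atp4b-Cre-;Cdh1loxP/loxP;Trp53loxP/loxP of the same age. Both groups carry the loxP-flanked alleles, and the groups differ in Cre, which is driven by the promoter of Atp4b, a proton pump subunit gene of parietal cells. The tumours, hybridised in red (Cy5) on 3 Agilent 2-colour arrays, were each compared with the same green (Cy3) pool of 5 mucosae. The stroma of the mucosae had been removed mechanically in 30 mM EDTA-2Na, a step the labels do not give for the tumours. All ratios are tumour over pool on the log2 scale and are given for tumour replicates 1, 2 and 3 in that order. Because the pool counts as 1 control sample, a test of the ratio against 0 does not include how normal mucosae vary. The 3 pool signals given for a gene are readings of this 1 pool, so their spread is not that between normal mucosae. Because tumours were always red, any dye effect remains in every ratio. Between 64 and 66.8% of gene spots were well above background in the tumours and between 52.5 and 54.2% in the pool, and 0 were saturated. Cdh1, which encodes E-cadherin, fell by 4.24 on the log2 scale in the tumours (adjusted p = 0.00186), and Trp53 had -0.21 (adjusted p = 0.161).

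The nuclear pore complex is a ring-shaped channel in the nuclear envelope. Its scaffold consists of outer rings, built from the Y-shaped Nup107 complex, and an inner ring built around Nup93, and it is anchored in the membrane by transmembrane nucleoporins. Nucleoporins rich in phenylalanine-glycine repeats fill the central channel, with filaments on the cytoplasmic side and a basket on the nuclear side. Importins bind cargo in the cytoplasm and exportins bind it in the nucleus, and the direction of transport is set by the small GTPase Ran, which is loaded with GTP inside the nucleus and hydrolyses it outside. Pores disassemble in mitosis and are rebuilt in each daughter cell, and new pores are added in interphase, so proliferating cells make pore components continually.

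Promoter sequences of 4 members are shown because these genes gave the highest ratio of the inner ring (Nup93), a raised inner ring gene with letters of several motifs (Nup155), the highest ratio of the Ran cycle (Ran) and the lowest ratio of all members (Ipo13). Each runs from 250 bases before to 50 bases after the gene's start in RefSeq, on the assembly GRCm38.p6. They lie at chr8:94214314-94214613 on the plus strand for Nup93, chr15:8109063-8109362 on the plus strand for Nup155, chr5:129019906-129020205 on the plus strand for Ran and chr4:117914950-117915249 on the minus strand for Ipo13. For Nup93 this is the promoter of the first of 2 listed starts. Capitals mark letters that match 1 of 5 motifs on either strand. The E2F-like motif was searched as TTTNNCGC, the E-box of the Myc family as CACGTG and the ETS-like motif as CCGGAA. The CCAAT box was searched by the letters of its name, and the NRF1-like motif as GCGCA, any base and GCGC in a row. No motif letters overlap in the windows printed.
Nup93: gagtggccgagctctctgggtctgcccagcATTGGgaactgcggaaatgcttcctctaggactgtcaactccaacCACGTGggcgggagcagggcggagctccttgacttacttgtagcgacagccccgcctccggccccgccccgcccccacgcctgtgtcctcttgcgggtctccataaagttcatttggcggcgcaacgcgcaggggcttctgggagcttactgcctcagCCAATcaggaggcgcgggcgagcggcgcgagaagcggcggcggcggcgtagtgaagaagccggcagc
Nup155: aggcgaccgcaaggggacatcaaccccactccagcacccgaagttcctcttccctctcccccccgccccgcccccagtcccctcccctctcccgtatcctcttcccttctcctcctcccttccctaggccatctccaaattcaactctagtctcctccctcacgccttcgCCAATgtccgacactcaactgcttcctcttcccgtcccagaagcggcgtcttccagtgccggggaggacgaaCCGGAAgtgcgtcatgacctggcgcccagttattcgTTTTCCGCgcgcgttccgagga
Ran: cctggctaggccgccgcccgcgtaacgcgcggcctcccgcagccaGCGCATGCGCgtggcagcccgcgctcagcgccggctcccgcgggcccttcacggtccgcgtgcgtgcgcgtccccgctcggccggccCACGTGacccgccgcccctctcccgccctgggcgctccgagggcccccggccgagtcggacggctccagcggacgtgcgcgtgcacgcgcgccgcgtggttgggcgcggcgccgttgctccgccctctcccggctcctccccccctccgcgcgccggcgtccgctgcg
Ipo13: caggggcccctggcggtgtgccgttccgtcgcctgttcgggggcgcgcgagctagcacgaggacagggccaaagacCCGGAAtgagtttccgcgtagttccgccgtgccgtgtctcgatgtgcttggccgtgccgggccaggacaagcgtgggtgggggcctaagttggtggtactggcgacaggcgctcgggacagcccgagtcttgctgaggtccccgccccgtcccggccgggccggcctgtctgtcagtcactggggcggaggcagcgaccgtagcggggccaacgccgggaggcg

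The Nup93 window held an E-box and 2 CCAAT matches. The Nup155 window held a CCAAT match at position -80 relative to the start, an ETS-like match at -8 and an E2F-like match at 28. The Ran window held an NRF1-like match and an E-box, and the Ipo13 window held 1 ETS-like match, at -174. RefSeq promoters were found for 44 of the 55 members, and not for Kpna1, Kpna3, Kpna6, Nup210l, Nup35, Nup43, Nup85, Ranbp3, Seh1l, Xpo4 and Xpo7. E2F-like letters stood in the promoters of 8 of them (18.2%), against 5.93% of 27025 genes, and NRF1-like letters in 7 (15.9%), against 5.19%. The E-box stood in 8 (18.2%), against 8.09% of all genes, the ETS-like motif in 12 (27.3%), against 16.7%, and the CCAAT box in 21 (47.7%), against 41.1%. A letter match describes the sequence and is neither a binding site nor a cause.

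Of the 50 members tested, 21 were higher in the tumours at an adjusted p under 0.05 (42%, where 24.5% of all 19433 genes were), 4 were lower (8%, where 22.9% of all genes were) and 25 did not pass. With a 2-fold minimum added, 7 members were higher (14%, against 9.33% of all genes) and 1 was lower (2%, against 9.68%). At 2-fold the members' share of higher genes stayed above that of all genes with a background offset of 0 (10 of 50 members, against 16.4%). It was below with Agilent's processed signals, at 7 of 50 members (14%) against 19.2%. The 7 were the nucleoporin genes Nup93, Nup155, Nup210, Nup37, Nup35 and Nup133 and the GTPase gene Ran, and the lower gene was Ipo13, which encodes an importin. The median log2 ratio of the members was 0.27, against 0.05 for all genes, and within tumours it was 0.39, 0.27 and 0.34, against 0.04 in each. Ratios were above 0 in all 3 tumours for 35 members (70%, against 40.7% of all genes) and below 0 in all 3 for 5 members (10%, against 34.3%). The middle 50% of all genes lay between -0.35 and 0.44. In bulk tissue, fewer cells of a type and less RNA per cell cannot be told apart.

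These counts depended on scaling and on the number of arrays. With the array median of the gene spots as centre in place of loess (median centring), 46 members passed as higher and 0 as lower. There 60% of all genes passed as higher and 1348 of 19433 as lower. Of all 2-fold calls, 93.3% were higher, against 49.1% with loess. That centring moved the median of all genes to 0.77, and relative to it the members' median stood at 0.56, against 0.22 with loess. Counts by role or list are read against 24.5% higher and 22.9% lower of all genes with loess. With median centring they are read against that 60% higher and those 1348 genes lower. Without tumour replicate 1, 13 members passed as higher, where 17% of all genes did. Without replicate 2 and without replicate 3, 1 member passed as lower. Of all genes, 2886 of 19435 and 2981 of 19437 did so, against 4443 of 19433 with all 3 arrays.

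**Figure D1:**
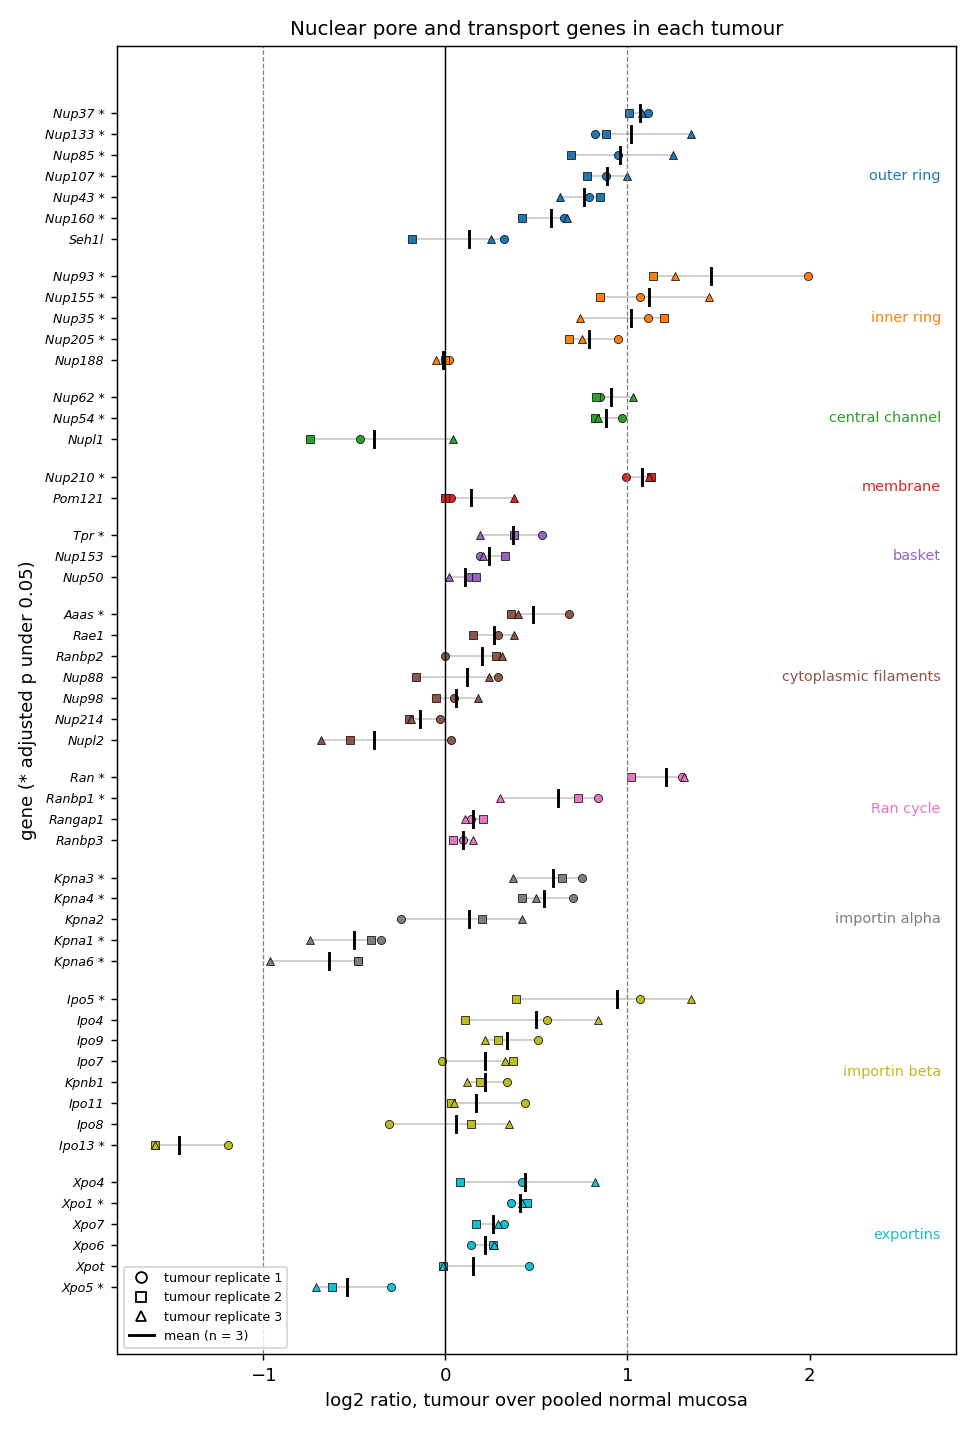
Log2 ratio of tumour over pooled normal mucosa (horizontal axis) for each of the 50 members tested (vertical axis, grouped by role), with a symbol for each of the 3 tumours, a bar at the mean and dashed lines at a 2-fold difference. Outer and inner ring genes lie mostly between 0.58 and 1.46 and Ipo13 lies at -1.46, while Kpna1, Kpna6 and Xpo5, below 0 here, lie above 0 with median centring but -0.33, -0.27 and -0.30 from the median of all genes there.

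Most outer ring genes were higher in the tumours. Of the 7 genes placed here by list 6 rose and 0 fell, with a median of 0.89 and medians of 0.82, 0.78 and 1.00 in the 3 tumours. Outside that list, Nup98, which also encodes a Y complex subunit, had 0.06 and Sec13 had -0.14, and neither passed. Ahctf1, also outside it, passed at 0.55. Nup37 had ratios of 1.11, 1.01 and 1.08, from log2 signals of 10.31, 10.27 and 10.24 in the tumours and 9.20, 9.27 and 9.16 in the pool. The tumours lay above the pool without overlap and within 0.10 of each other, and the mean was 1.07 ± 0.05 (SD, n = 3), or 2.09-fold (adjusted p = 0.00201). Its probe lies on chromosome 10 from 87640966 to 87641025 of mm9, the build of all probe positions given here.

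Nup133, which tethers the Y complex to the membrane and to its neighbours, had ratios of 0.82, 0.88 and 1.35, highest in tumour replicate 3. It averaged 1.02 ± 0.29 (SD, n = 3; adjusted p = 0.00686; chromosome 8, 126423303 to 126423362). Nup85 had 0.95, 0.69 and 1.25, also highest in replicate 3, and averaged 0.96 ± 0.28 (SD, n = 3; adjusted p = 0.0076; chromosome 11, 115445132 to 115445191). Nup107 (0.89), which names the complex, Nup43 (0.76) and Nup160 (0.58) passed as well. Nup160 lost its call at 0.55 when replicate 1 was left out (adjusted p = 0.0506), at 0.54 when replicate 3 was (adjusted p = 0.0614) and at 0.42 with spike-in centring (adjusted p = 0.30). Seh1l, a subunit shared with a complex of the nutrient-sensing pathway, did not pass, with 0.32, -0.18 and 0.25 and a second probe at a mean of 0.00.

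The inner ring contained the highest ratio of any member. Of its 5 genes 4 rose and 0 fell, with a median of 1.02. Nup93, its central organiser, had ratios of 1.99, 1.14 and 1.26, from log2 signals of 11.80, 10.87 and 11.12 in the tumours and 9.81, 9.73 and 9.86 in the pool. Tumour replicate 1 was highest, and every tumour signal lay above every pool signal. The mean was 1.46 ± 0.46 (SD, n = 3), a 2.76-fold difference with a 95% interval of 0.93 to 1.99 on the log2 scale (adjusted p = 0.00653; chromosome 8, 96838656 to 96838715).

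Nup155, a scaffold protein that contacts the pore membrane and whose promoter is printed above, had ratios of 1.07, 0.85 and 1.45 and signals of 8.91, 8.73 and 9.29 in the tumours against 7.84, 7.88 and 7.83 in the pool. It averaged 1.12 ± 0.31 (SD, n = 3; adjusted p = 0.00592; chromosome 15, 8109569 to 8109628). Nup35, which binds membranes and links Nup93 to Nup155, had 1.11, 1.20 and 0.74, lowest in replicate 3, and averaged 1.02 ± 0.25 (SD, n = 3; adjusted p = 0.00545; chromosome 2, 80498883 to 80498942). Replicate 3 was the highest tumour for Nup155 and the lowest for Nup35, so the tumours did not keep 1 order across the ring. Nup205 passed at 0.79, whereas its paralogue Nup188 had 0.02, 0.00 and -0.05 at the probe used and between -0.01 and 0.16 over 3 probes. The Nup188 probes were dim, with mean log2 signals of 6.27 to 6.87, against 9.49 for Nup205. The background offset pulls such dim ratios towards 0, which limits the contrast. In all, 10 of the 12 ring genes placed by list passed as higher, and those 10 were above 0 in every tumour.

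In the central channel and the membrane, 3 of 5 tested genes rose. Nup62, the repeat-rich protein that fills the channel, had 0.85, 0.83 and 1.03, a mean of 0.91 ± 0.11 (SD, n = 3; adjusted p = 0.00349; chromosome 7, 52086086 to 52086145). Its partner Nup54 had 0.97, 0.82 and 0.84, a mean of 0.88 ± 0.08 (SD, n = 3; adjusted p = 0.00338; chromosome 5, 92844808 to 92844867). Both tumour sets stood clear of the pool, with spreads well below the difference. The other channel component, Nupl1, differed from its partners: its ratios were -0.47, -0.74 and 0.04, and its mean of -0.39 did not pass (adjusted p = 0.136). In the authors' deposited table its values averaged -0.82 and passed as lower in the same test (adjusted p = 0.0427). Its probe spans 60838990 to 60840473 on chromosome 14, more than its own length.

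Nup210, a transmembrane glycoprotein of the pore, had 0.99, 1.13 and 1.12, with signals of 10.28, 10.49 and 10.65 in the tumours against 9.29, 9.36 and 9.53 in the pool. The mean was 1.08 ± 0.08 (SD, n = 3), or 2.11-fold (adjusted p = 0.0021; chromosome 6, 90963064 to 90963123). The median of its probes was 0.62 (adjusted p = 0.00723), which is under 2-fold. Pom121, the other tested membrane nucleoporin, had 0.03, 0.00 and 0.38, a mean of 0.14 that did not pass (adjusted p = 0.382).

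In the loess ratios the peripheral structures differed from the pool by less than the rings did, with medians of 0.24 for the basket and 0.12 for the cytoplasmic filaments, although median centring gave 1.28 for both, where the outer ring had 2.05 and the inner ring 2.10. Relative to the median of all genes these were 0.52 for basket and filaments, 1.29 for the outer ring and 1.33 for the inner ring. Of the 3 basket genes 1 passed, or 3 with median centring. With an offset of 0, Agilent's processed signals, spike-in centring, the authors' values or the median of a gene's probes, 0 passed. The same held with loess followed by centring on the genes tested, and with only probes well above background in both channels. Tpr, the long coiled-coil protein of the basket, had 0.53, 0.38 and 0.19, a mean of 0.37 ± 0.17 (SD, n = 3; adjusted p = 0.0478; chromosome 1, 152297003 to 152297062). That call was lost without any of the tumours, at 0.29, 0.36 and 0.46 without replicates 1, 2 and 3 (adjusted p = 0.169, 0.161 and 0.0696). A second Tpr probe gave 0.23 and did not pass (adjusted p = 0.106). Nup153 (0.24, adjusted p = 0.0868) and Nup50 (0.11, adjusted p = 0.368), which help to release import cargo, did not pass. Nup50, Nup153 and the exportin gene Xpo6 were each spotted 10 times per array. The SD over the spots of an array was between 0.04 and 0.12, so their small ratios were measured closely within each array.

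Of the 7 genes placed by list with the cytoplasmic filaments, 1 passed as higher and 0 as lower, with a median of 0.12. With median centring, however, 6 passed as higher. With spike-in centring 0 did and 1 passed as lower, where 20.3% of all genes were higher and 4679 of 19433 lower. Aaas, which encodes aladin, the protein mutated in human triple A syndrome, had 0.68, 0.36 and 0.40 and averaged 0.48 ± 0.18 (SD, n = 3; adjusted p = 0.0257; chromosome 15, 102168872 to 102168931). Its call was lost without any of the tumours, at 0.38, 0.54 and 0.52 without replicates 1, 2 and 3 (adjusted p = 0.089, 0.0703 and 0.0802). Ranbp2, the SUMO ligase that binds Rangap1 at the filaments, had 0.20 (adjusted p = 0.191), and the RNA export factor Rae1 had 0.27 (adjusted p = 0.0755). Nup88 (0.12), Nup98 (0.06), Nup214 (-0.14) and Nupl2 (-0.39, adjusted p = 0.119) did not pass. The Nup98 gene also encodes Nup96, a subunit of the Y complex. In the pool Nup214 cleared background on 1 of 3 arrays, which limits what its ratio can show. It passed as lower in 2 alternatives, at -1.11 when arrays were centred on spike-ins (adjusted p = 0.00313) and at -0.80 from the processed signals (adjusted p = 0.04). All 3 probes of Nupl2 gave means between -0.39 and -0.34.

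**Figure D2:**
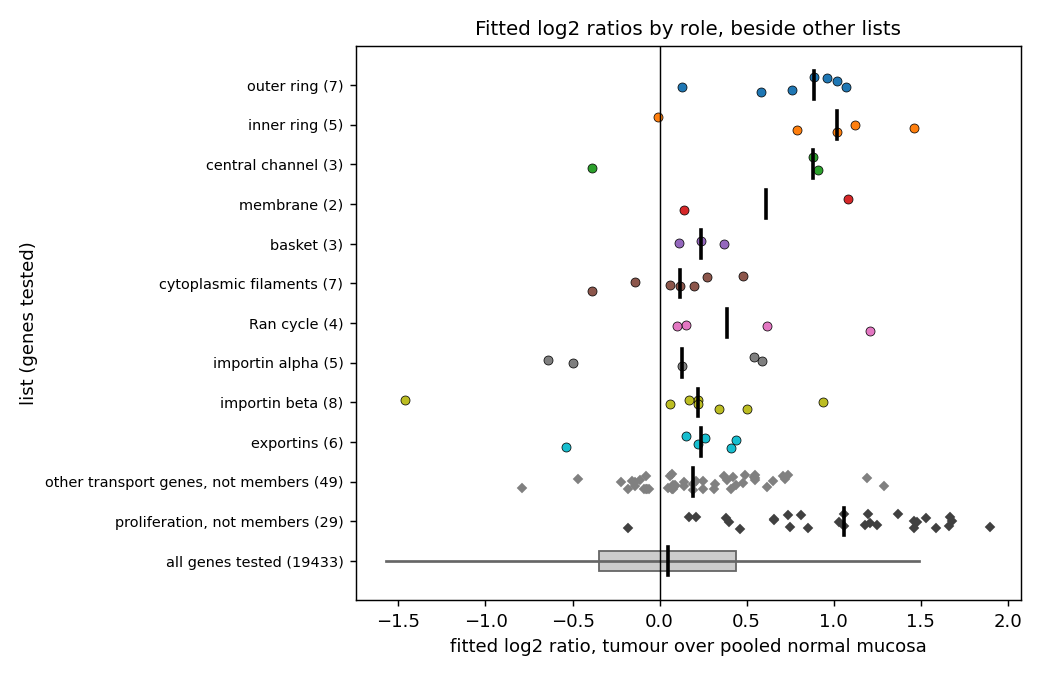
Fitted log2 ratio of tumour over pooled normal mucosa (horizontal axis) for each gene, by structural role, beside the companion lists and all 19433 genes tested (box from the 25th to the 75th percentile, whiskers at the 5th and 95th; thick bars are medians). Medians were 0.89 and 1.02 for the outer and inner rings, 0.24 and 0.12 for the basket and the cytoplasmic filaments, and 1.06 for proliferation genes.

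In the Ran cycle 2 of 4 genes rose and 0 fell, or 4 rose with median centring, where their median was 0.82 above that of all genes. Ran had ratios of 1.30, 1.02 and 1.31, from log2 signals of 14.35, 14.28 and 14.47 in the tumours and 13.05, 13.26 and 13.16 in the pool. The lowest tumour signal exceeded the highest reading of the pool by more than the spread over the tumours or over those readings. The mean was 1.21 ± 0.16 (SD, n = 3), or 2.31-fold (adjusted p = 0.00229; chromosome 5, 129528961 to 129529020). Its second probe gave 1.21, 0.57 and 0.71, a mean of 0.83. Ranbp1, which helps Rangap1 to discharge Ran in the cytoplasm, had 0.84, 0.73 and 0.30, a mean of 0.62 ± 0.29 (SD, n = 3; adjusted p = 0.0243; chromosome 16, 18240072 to 18240131). Its call was lost at 0.51 when replicate 1 was left out (adjusted p = 0.0842) and at 0.57 when replicate 2 was (adjusted p = 0.102). It was also lost at 0.61 with Agilent's processed signals (adjusted p = 0.0501). Rangap1, the GTPase-activating protein, had 0.15 (adjusted p = 0.208), and Ranbp3, a cofactor of nuclear export, had 0.10 (adjusted p = 0.406).

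Importin alpha proteins recognise the classical nuclear localisation signal and hand cargo to importin beta. They form subfamilies, with Kpna3 and Kpna4 in one, Kpna1 and Kpna6 in another, and Kpna2 in another again. Of the 5 tested genes 2 rose and 2 fell, although neither lower gene stayed below 0 with median centring, where Kpna6 had 0.49 and Kpna1 0.43. Relative to the median of all genes there, Kpna6 was at -0.27 and Kpna1 at -0.33.

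Kpna3 had 0.75, 0.64 and 0.37, a mean of 0.59 ± 0.20 (SD, n = 3; adjusted p = 0.017; chromosome 14, 61984464 to 61984523). Kpna4 had 0.70, 0.42 and 0.50, a mean of 0.54 ± 0.15 (SD, n = 3; adjusted p = 0.0153; chromosome 3, 68876192 to 68876251). Both were above 0 in every tumour, but with Agilent's processed signals Kpna4 had 0.49 and did not pass (adjusted p = 0.056). Kpna6 had -0.48, -0.48 and -0.96, a mean of -0.64 ± 0.28 (SD, n = 3; adjusted p = 0.0215; chromosome 4, 129321353 to 129321412). Kpna1 had -0.35, -0.41 and -0.74, a mean of -0.50 ± 0.21 (SD, n = 3; adjusted p = 0.0274; chromosome 16, 36035740 to 36035799). Both were lowest in tumour replicate 3, and in the loess ratios both were below 0 in every tumour. A second Kpna6 probe, well above background on all arrays in both channels, gave -0.05, -0.30 and -0.27. Its mean of -0.20 did not pass (adjusted p = 0.148), while the median of the 2 probes, -0.42, did (adjusted p = 0.0337). With spike-in centring both genes lost their calls, Kpna6 at -0.36 (adjusted p = 0.382) and Kpna1 at -0.42 (adjusted p = 0.299). With all 3 arrays needed for most of these calls, Kpna3 had 0.50 with replicate 1 left out (adjusted p = 0.0642) and 0.56 with replicate 2 left out (adjusted p = 0.0785), and Kpna4 had 0.46, 0.60 and 0.56 without replicates 1, 2 and 3 (adjusted p = 0.0586, 0.0501 and 0.0631). Kpna6 had -0.72 with replicate 2 left out (adjusted p = 0.0583) and -0.48 with replicate 3 left out (adjusted p = 0.0572), and Kpna1 had -0.58, -0.55 and -0.38 without replicates 1, 2 and 3 (adjusted p = 0.0529, 0.083 and 0.0858).

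Kpna2 had -0.24, 0.20 and 0.42, with tumour signals of 12.12, 12.63 and 12.62 on either side of pool signals of 12.36, 12.43 and 12.20. The tumours overlapped the readings of the pool, the mean of 0.13 ± 0.34 (SD, n = 3) did not pass (adjusted p = 0.535), and its 4 probes gave means between 0.03 and 0.17. Kpna7, its closest relative, was not well above background on any array in either channel and was not tested.

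Among the importin beta genes 1 of 8 rose and 1 fell, or 7 rose and 0 fell with median centring, where their median was 0.43 above that of all genes. The gene that fell, Ipo13, was the only member called at least 2-fold lower in the loess ratios. Ipo13 carries cargo in both directions, importing the SUMO-conjugating enzyme among others. It had ratios of -1.19, -1.59 and -1.59, from log2 signals of 10.45, 10.04 and 10.12 in the tumours and 11.65, 11.63 and 11.71 in the pool. Every tumour lay below every pool signal, and the mean was -1.46 ± 0.23 (SD, n = 3), or 2.75-fold lower, with a 95% interval of -1.79 to -1.13 (adjusted p = 0.00214; chromosome 4, 117567109 to 117567168). With median centring it had -0.23 and did not pass (adjusted p = 0.159), which was -1.0 from the median of all genes there. A single probe reads Ipo13, so no other probe could be compared.

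Ipo5, an importer of ribosomal proteins and histones, had 1.07, 0.39 and 1.35, from signals of 9.89, 9.20 and 10.14 in the tumours and 8.82, 8.81 and 8.79 in the pool. The tumours differed among themselves more than for most members, with replicate 2 low, and the mean was 0.94 ± 0.49 (SD, n = 3; adjusted p = 0.0239; chromosome 14, 121347045 to 121347104). It lost its call at 0.87 when replicate 1 was left out (adjusted p = 0.0804) and at 0.73 when replicate 3 was (adjusted p = 0.0949). Kpnb1, importin beta itself, had 0.34, 0.19 and 0.12, a mean of 0.22 (adjusted p = 0.128). The other beta importers did not pass: Ipo4 had 0.50 (adjusted p = 0.0668), Ipo9 0.34 (adjusted p = 0.0538), Ipo7 0.22, Ipo11 0.17 and Ipo8 0.06.

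Of the 6 exportins 1 rose and 1 fell, or 6 rose with median centring, where their median was 0.30 above that of all genes. With an offset of 0, Agilent's processed signals, spike-in centring or the authors' values, 0 exportins rose. Xpo1, the exporter of proteins with a leucine-rich export signal and the target of export inhibitors, had 0.36, 0.45 and 0.42, a mean of 0.41 ± 0.05 (SD, n = 3; adjusted p = 0.021; chromosome 11, 23196173 to 23196232). The tumours were within 0.09 of each other, and its second probe gave 0.57. Xpo5, the exporter of microRNA precursors, had -0.30, -0.62 and -0.71, a mean of -0.54 ± 0.22 (SD, n = 3; adjusted p = 0.023; chromosome 17, 46378755 to 46378814), but 0.46 with median centring, which was -0.30 from the median of all genes there. Xpo1 lost its call without each tumour in turn, at 0.44, 0.39 and 0.40 without replicates 1, 2 and 3 (adjusted p = 0.0648, 0.101 and 0.0802), and Xpo5 lost it at -0.51 with replicate 2 left out (adjusted p = 0.0995) and at -0.46 with replicate 3 left out (adjusted p = 0.096). With spike-in centring Xpo1 had 0.65 and Xpo5 -0.39, and neither passed (adjusted p = 0.0899 and 0.341). Xpo4 (0.44, adjusted p = 0.0908), Xpo7 (0.26, adjusted p = 0.0735), Xpo6 (0.22, adjusted p = 0.103) and the tRNA exporter Xpot (0.15, adjusted p = 0.405) did not pass. Xpot had 0.46 in replicate 1 and -0.01 in each of the others.

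Over all 27 tested nucleoporin genes 15 passed as higher and 0 as lower, with a median of 0.48. Of the 19 tested carrier genes 4 passed in each direction, near the shares over all genes (24.5% higher and 22.9% lower), with a median of 0.22. The difference between these groups was not tested. Each member's tumour signal varied over the arrays by a median SD of 0.19, its pool signal by 0.07 and its ratio by 0.17, against 0.19 for the ratio over all genes.

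Of the members 15 had several probes above background, and for 12 of these the probe means lay within 0.5 of each other. Sequences are shown for 3 genes whose probes gave unequal readings, as the first 30 of 60 bases of each probe in the direction the file gives, with the probe used for the gene first. The exon or UTR under each probe was not assigned.
Nup210, used: ccgagagctgttaatggagtcttccctgca
Nup210, other: ctgctggtgggaacctccattcactacaag
Ipo5, used: cagagcagtaactgatgagctgttgtttcc
Ipo5, other: tggcccaaacaataccaatctaccgaaaat
Nup93, used: ctggggtgggtttccagttttgtttctgtt
Nup93, other: tttggggccagagaatgagaggctacatag

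The other Nup210 probe, on chromosome 6 from 91035854 to 91035913, gave 0.19, 0.29 and 0.02, a mean of 0.17 against 1.08, the largest difference among the members (0.91). It stood well above background in the tumours on all 3 arrays and in the pool on 0, so the pool's side of its ratio is only a bound. The other Ipo5 probe, on chromosome 14 from 121345317 to 121345376, gave 0.15, -0.03 and 0.32, a mean of 0.14 against 0.94, and was well above background on all arrays in both channels. The size of the Ipo5 ratio thus depends on the probe, and the median of its probes was 0.54 (adjusted p = 0.0454). The other Nup93 probe, on chromosome 8 from 96838885 to 96838944, was above background on 0 arrays in either channel, so Nup93 was read by a single probe. For Kpna3 the median of the probes was 0.31 and did not pass (adjusted p = 0.119). Probes of Ran (0.83 and 1.21), Nup54 (0.54 and 0.88), Nup35 (0.80 and 1.02) and Xpo1 (0.41 and 0.57) all passed on their own, as did the second probe of Xpo7 (0.65). Probe means had opposite signs for Xpo4 (-0.06 and 0.44) and Nup188, and none of these passed.

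**Figure D3:**
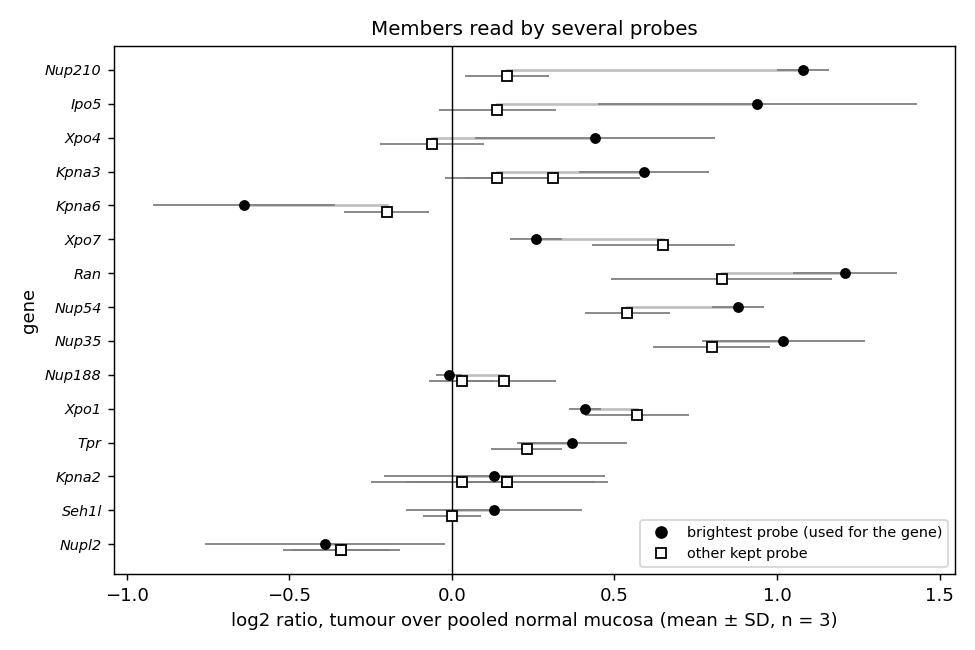
Mean log2 ratio of tumour over pooled normal mucosa ± SD over 3 tumours (horizontal axis) for each probe of the 15 members with several probes above background (vertical axis). Filled circles are the probes used and open squares the others, and Nup210 (1.08 and 0.17) and Ipo5 (0.94 and 0.14) are the widest pairs.

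The 5 untested members were Kpna7, Nup62cl, Nup210l, Pom121l2 and Pom121l12. Nup210l was well above background in the tumours on 2 arrays and 1 Nup62cl probe on 1 array, and no other probe of these genes on any array. Their ratios have no interpretable size at this signal.

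Transport and envelope genes outside the name rule were compared from a list of 54 names, of which 49 genes were tested: 15 rose, 2 fell and the median was 0.19. Over all genes 24.5% rose and 22.9% fell. The largest ratios were those of Heatr3, a carrier of ribosomal protein uL18 (1.71, 0.90 and 1.28, mean 1.29, adjusted p = 0.00677), and the lamin B1 gene Lmnb1 (1.34, 1.00 and 1.24, mean 1.19, adjusted p = 0.00254). The messenger RNA exporter Nxf1 rose (0.63, 0.80 and 0.79, mean 0.74, adjusted p = 0.00545), and Nxt2, a cofactor of its family, fell (-0.91, -0.78 and -0.66, mean -0.79, adjusted p = 0.00532). The membrane nucleoporin Ndc1 had 0.64, 0.41 and 0.42 and passed at 0.49 (adjusted p = 0.0185). Of 2 further nucleoporins of the Y complex, named after their values were seen, Ahctf1 passed at 0.55 (adjusted p = 0.01) and Sec13 did not at -0.14 (adjusted p = 0.378).

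Proliferation genes were also higher in the tumours. Of 29 tested 25 were higher and 0 lower, 17 at least 2-fold, with a median of 1.06, led by Mcm4 (1.90), Mcm5 (1.68), Rrm2 (1.67) and Plk1 (1.66). Their mean log2 signal was 9.49 to 9.66 in the tumours and 8.55 to 8.61 in the pool, and 2 of them were not well above background in the pool on any array. Cell type markers also differed. Of the markers tested, 5 of 5 parietal, 4 of 4 chief, 6 of 6 mucous and 3 of 3 endocrine cell genes were lower, with mean log2 signals per list of 8.18 to 11.99 in the tumours and 14.55 to 16.01 in the pool. Among markers of other cells, 5 of 6 fibroblast genes, 3 of 4 smooth muscle, 4 of 4 macrophage, 2 of 2 neutrophil, 2 of 3 B cell and 2 of 3 T cell genes and Ptprc were higher. Mean log2 signals were 12.14 to 13.59 in the tumours and 10.47 to 10.60 in the pool for fibroblast genes, and 10.19 to 10.36 in the tumours and 8.79 to 9.0 in the pool for macrophage genes. For smooth muscle genes they were 10.49 to 12.16 in the tumours and 9.86 to 10.05 in the pool, and for neutrophil genes 13.27 to 16.27 in the tumours and 7.63 to 8.25 in the pool. For B cell genes they were 8.42 to 10.08 in the tumours and 6.67 to 7.01 in the pool, and for T cell genes 8.32 to 8.64 in the tumours and 7.51 to 7.58 in the pool. In the tumours, 1 parietal gene was not well above background on any array, and 1 macrophage, 1 B cell and 1 T cell gene were not in the pool on any array. Of 3 endothelial genes 1 was higher and 1 lower, and of 5 epithelial genes 2 were higher, Cldn7 and Epcam, and 2 lower, Krt8 and Krt19. The part of proliferation or of cell composition in the ratios of the pore and transport genes was not tested.

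**Figure D4:**
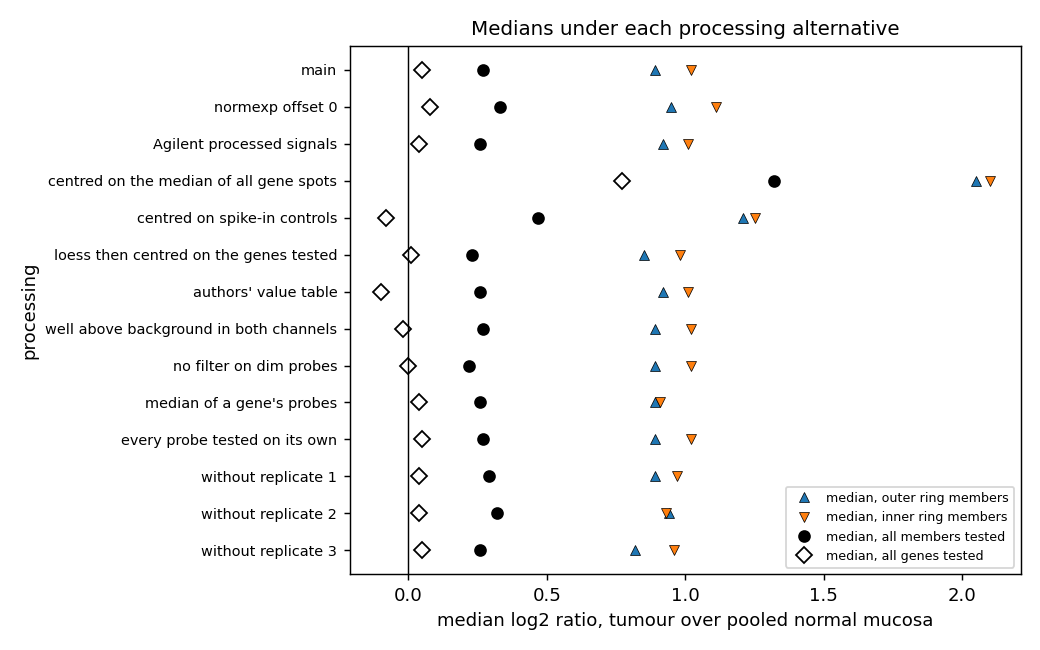
Median log2 ratio of tumour over pooled normal mucosa (horizontal axis) under each processing alternative (vertical axis) for outer ring, inner ring and all tested members and for all genes tested. The ring medians lie between 0.82 and 2.10 and above the median of all genes in every row shown, and median centring moves the median of all genes to 0.77.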

How the data were processed

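Each of 3 tumours (red) was compared with 1 pool of normal mucosae (green) on 1 slide scanned once. The scanner files hold intensity values (mean signals and median local backgrounds), deposited as Agilent Feature Extraction wrote them. The submitters' processing notes give its version as 9.5.3, whereas 10.7.3.1 and mm9 coordinates stand in the headers. The authors also deposited a table of log2 ratios. Of its filled values, 99.8% lay within 0.01 of the log10 ratio of red over green, deposited per the file headers and put on the log2 scale, so no centring had been added. Its column medians were -0.15, -0.13 and -0.11.

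RefSeq accessions named 26055 of 39429 probes, and 13374 kept the file's name. Signals were corrected with normexp (offset 50) and normalised by within-array loess in limma 3.58.1 (R 4.3.3), with control spots weighted 0. Control spots and the 157, 167 and 190 spots with outlier flags were removed before replicate spots were averaged. A probe was kept if it stood well above background in all 3 tumours or in the pool on all 3 arrays (24175 probes), and the brightest kept probe stood for its gene (19433 genes). The offset pulls dim ratios towards 0. The test was limma's moderated test of the ratio against 0 (lmFit, eBayes; prior degrees of freedom 2.45), two-sided and adjusted over all genes by Benjamini-Hochberg. A gene passed at an adjusted p under 0.05, and a second rule also required at least 2-fold. The number of arrays, 3, limits precision. In simulated data for 19433 genes, 10117 of them null, 85% of 1.5-fold and 98% of 2-fold changes were recovered, and 2.47% of passing genes were false. That last share depends on the number of null genes simulated. It is not an error rate for the calls here, where the pool is 1 sample and the dyes were not swapped.

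Per-tumour values are given for up to 3 passing members with the largest ratios in each role group, for every member that passed as lower and for up to 4 genes of the companion lists; the others are given by fitted value or where a probe or a partner is compared. Members and lists were chosen with earlier results of these data known, and the motifs after seeing these values. Alternatives covered background correction, scaling, the filter on dim probes, the probe used and leaving out each tumour.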

Additional observations from a re-analysis of the deposited data

How the results depend on the processing

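With median centring on all gene spots, 46 members passed as higher (60% of all genes did) and 0 as lower (1348 of 19433 genes did). At least 2-fold, 39 were higher (39.9% of all genes were) and 0 lower (556 of 19433 genes were). The members' median was 1.32, and Kpna6 (0.49), Kpna1 (0.43) and Xpo5 (0.46) changed sign, at -0.27, -0.33 and -0.30 relative to the median of all genes. That centre includes gene spots not above background. With centring on spike-in controls, 13 members were at least 2-fold higher (14.4% of all genes were). The 2 lower were Ipo13 and Nup214 (-1.11), where 2725 of 19433 genes were lower. At any fold 2 passed as lower (4679 of 19433 genes did), and the members' median was 0.47. There the median of all genes was -0.08, against -0.10 in the authors' values, and relative to these the members' median was 0.56 and 0.36. With an offset of 0 the median was 0.33. Leaving out each tumour in turn, 13 to 16 members passed as higher (14.3 to 17% of all genes did). As lower, 1 to 4 members passed (2886 to 3431 of all genes did). At least 2-fold, 5 to 8 members were higher (8.55 to 8.68% of all genes were) and 1 lower (1777 to 1921 genes were). The members' medians were 0.26 to 0.32. Of the values of the 21 members given by tumour and named by rule, not of all members, 224 kept their direction and their side of the threshold, 46 lost the call and 3 changed sign. Outside these, Nup160 lost its call in 3 alternatives, and calls as lower appeared for Nup214 with Agilent's processed signals (-0.80), Nupl1 in the authors' values (-0.82) and Nupl2 without replicate 1 (-0.60). No paired analysis was possible because the pool is 1 sample with no replicate numbers. Signal over background limits Nup214, Nup188 and the second Nup210 probe.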
